A study of Mus musculus with 12 samples.

Results

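Phka2, Med1, Dcbld2, Wscd1 and Tcl1 are 5 genes taken out of 27308 gene symbols on the array. Each was chosen by the difference of 1 of its probes between knockout mice that swam (KE) and knockout mice that did not (KO), in log2 signal and its adjusted p. The array carries 13 probes with these symbols, 4 for Phka2, 4 for Med1, 2 for Dcbld2, 2 for Wscd1 and 1 for Tcl1, and all 13 passed the detection filter, which kept 35230 of 56605 probes. The 5 probes that decided the choice are called the choosing probes here, and the remaining 8 are called the other probes.

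RNA came from the hypothalamus of 12 male mice of C57BL/6 background, labelled as 6 to 7 weeks old, an age at which per the methods the swimming began. WT mice were wild-type littermates without swimming, KO mice were homozygous for a deletion in Asmt without swimming, exercised WT mice were wild-type with swimming exercise, and KE mice were homozygous knockout with swimming exercise, with 3 arrays per group. Asmt encodes the enzyme of the last step of melatonin synthesis. The knockout came from Cas9 editing of zygotes, from founders with a 20 bp deletion that were backcrossed with wild-type littermates for 3 generations, and the deletion is present in every cell. All mice lived in 12-hour light and dark phases, and exercised WT and KE mice swam without added weight in daily sessions. In bulk tissue of this kind, fewer cells of a type and less RNA per cell cannot be told apart.

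The 12 arrays lay on 2 slides. KO replicates 1 and 2 shared slide 1 with all WT arrays, and KO replicate 3 shared slide 2 with all arrays of mice that swam. The first principal component took 47.3% of the variance and separated the slides, with scores of 29.5 to 47.5 on slide 1 and -40.0 to -19.3 on slide 2, where KO replicate 3 had the lowest score. Exercised WT against WT therefore also compared slide 2 with slide 1, and swimming and slide cannot be told apart in those 6 arrays. KE against KO replicate 3 lay within slide 2. Each array had from 36543 to 40276 spots well above background and no saturated spot. The number of arrays limits the precision, and for dim probes the signal over background does so too. The Asmt probe was well above background on 0 of 12 arrays, with values of 1.83 to 2.49, and so gave no check of the genotype. All 12 hypothalamic neuropeptide markers were well above background on every array. So were 5 of 5 choroid plexus, 6 of 6 striatal, 4 of 6 cortical or thalamic and 3 of 6 anterior pituitary markers. Of the remaining pituitary markers, Gh was above background on 0 arrays, Prl on 3 and Cga on 5, with Cga values from 1.85 to 11.5.

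The genes act in different processes. Phka2 encodes a regulatory alpha subunit of phosphorylase kinase, the enzyme that switches on glycogen phosphorylase and so releases glucose from glycogen. Med1 encodes the Mediator subunit through which nuclear receptors contact the transcription machinery. Dcbld2 encodes a membrane protein whose extracellular layout resembles that of the neuropilins, Wscd1 encodes a WSC domain protein that sulfates sialic acid, and Tcl1 encodes a small coactivator of the kinase Akt best known from lymphocytes and early embryos. The glycogen of brain is held mostly in astrocytes.

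The choice of members used the KE against KO contrast. Of 35230 probes, 7 passed an adjusted p of 0.05 in a limma fit of the 4 group means on quantile-normalized scanner signals, which is 0.0199% of the probes tested. The same number passed in the authors' normalized table. Ordered by p, the members' probes stood at positions 1 (Med1), 3 (Phka2), 4 (Tcl1), 6 (Dcbld2) and 7 (Wscd1), with Per3 at 2 and a probe without a symbol at 5. The probes just inside were Dcbld2 and Wscd1, with log2 differences of -0.83 and -0.94, and those just outside were Ulk3 at -0.90 and Rasl11a at -0.85. These values are the selection itself and carry no test. Without KO replicate 3, 8577 probes passed instead of 7, and with any other single array left out, those of WT and exercised WT included, 0 to 4 did. The members were not the probes with the largest differences. In the deposited values 625 probes moved more than Wscd1, 671 more than Tcl1, 853 more than Dcbld2, 932 more than Phka2 and 1972 more than Med1. The pooled SD within groups of the Med1 probe was 0.0562, with a lower SD in 9.49% of probes, whereas those of the others were 0.105 to 0.140 around a median of 0.137 for all probes tested. None of the 13 probes reached a 2-fold difference between KE and KO, which 426 probes (1.21%) did with an unadjusted p up to 0.05.

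**Figure D1:**
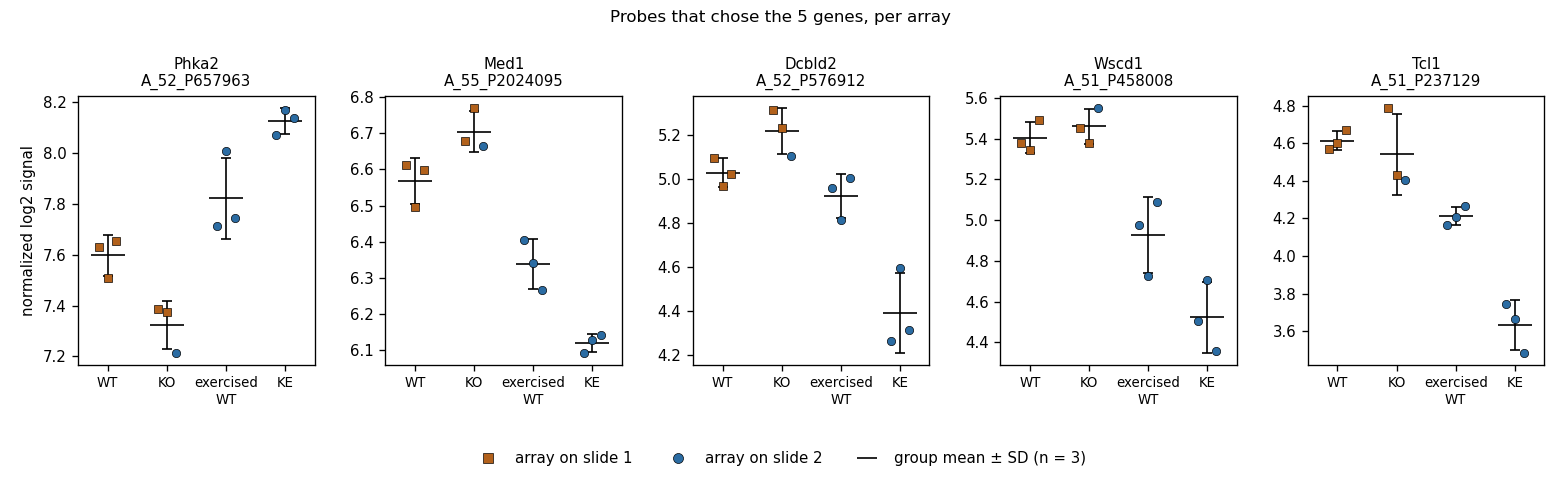
Normalized log2 signal (vertical axes, scaled per panel) of the probe that chose each gene, by group (horizontal axes), with 1 point per array, squares for slide 1, circles for slide 2, and bars for the mean and SD of 3 arrays. In every panel the KE arrays lie apart from the KO arrays, including KO replicate 3 on the same slide.

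Phka2, the kinase subunit, was the only member whose choosing probe was higher in KE than in KO. Probe A_52_P657963 lies at chrX:156967675-156967734 (mm9, plus strand), and the array's annotation ties it to transcript ENSMUST00000146752. Its normalized log2 signals were 7.63, 7.51 and 7.65 in WT, 7.39, 7.37 and 7.22 in KO, 7.71, 8.01 and 7.74 in exercised WT and 8.07, 8.17 and 8.14 in KE. KO was lowest, KE highest, and no neighbouring pair of groups in the order KO, WT, exercised WT, KE overlapped. The KE mean exceeded the KO mean by 0.80 on the log2 scale, or 1.74-fold. The value over KO replicate 3 alone, within slide 2, was 0.91.

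The other Phka2 probes did not show that rise. Probe A_55_P2140288, for variant 1 and 61339 bases downstream of the choosing probe, read 9.97, 9.85 and 9.89 in WT, 9.93, 9.79 and 9.49 in KO, 9.63, 9.61 and 9.68 in exercised WT and 9.70, 9.79 and 9.72 in KE. Its KE and KO arrays overlapped, and their means differed by -0.003. Probe A_52_P671916, also for variant 1, differed by -0.002 and probe A_55_P2596648, for variant 3, by 0.06, with overlap in both. KO replicate 3 was the lowest array on both variant 1 probes, at -0.37 and -0.30 against the mean of KO replicates 1 and 2, so that within slide 2 KE was 0.24 and 0.20 above it. To show which stretches of Phka2 were read, the first 30 bases of the choosing probe and the whole of a variant 1 probe are given, in the sense of the transcript. The choosing probe holds stop triplets in all 3 reading frames over its 60 bases and the variant 1 probe has 1 frame without any.
Phka2 A_52_P657963, bases 1 to 30: acgttacacatcaaccataggacttacttc
Phka2 A_52_P671916: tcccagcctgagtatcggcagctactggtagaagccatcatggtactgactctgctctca

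Med1, the Mediator subunit, was lower in KE than in KO on its choosing probe by 0.58, a ratio of 0.668. Probe A_55_P2024095 lies at chr11:98016556-98016615 (mm9, minus strand) and is annotated to variant 3. Its log2 signals were 6.61, 6.49 and 6.60 in WT, 6.68, 6.77 and 6.67 in KO, 6.41, 6.34 and 6.27 in exercised WT and 6.09, 6.13 and 6.14 in KE. The groups did not overlap in any of the neighbouring pairs of the order KO, WT, exercised WT, KE, and the KE arrays spanned less than 0.1. Within slide 2, KE lay 0.54 below KO replicate 3.

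The other Med1 probes gave smaller differences. Probe A_51_P324082 (variant 1, 924 bases downstream) read 11.15, 11.16 and 11.15 in WT, 11.14, 11.22 and 11.05 in KO, 11.11, 11.05 and 11.16 in exercised WT and 10.99, 10.98 and 11.02 in KE. KE was below KO by 0.14 without overlap, and by 0.05 against KO replicate 3. Probe A_55_P2502526 (variant 2, 2976 bases downstream) was lower in KE by 0.07, with overlap. Probe A_52_P301166 (variant 1, at -17982 bases along the gene, that is upstream) behaved differently from the rest. It read 5.71, 5.92 and 5.99 in WT, 6.18, 6.17 and 5.96 in KO, 6.11, 6.75 and 6.31 in exercised WT and 5.70, 5.76 and 5.82 in KE. Its exercised WT arrays were above all WT arrays and its KE arrays below all KO arrays, the latter by 0.34 on average and by 0.20 against KO replicate 3. The choosing probe is printed because the gene's difference rests on it.
Med1 A_55_P2024095: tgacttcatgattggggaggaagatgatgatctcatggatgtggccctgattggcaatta

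Dcbld2, the neuropilin-like membrane protein, was lower in KE by 0.83 on its choosing probe, a ratio of 0.564. Probe A_52_P576912 lies at chr16:58465536-58465595 (mm9, plus strand). Its log2 signals were 5.10, 4.97 and 5.02 in WT, 5.31, 5.23 and 5.10 in KO, 4.96, 4.81 and 5.003 in exercised WT and 4.26, 4.60 and 4.31 in KE. All KE arrays lay below the other 9, and exercised WT overlapped WT. The probe was well above background on 11 of 12 arrays, the exception being a KE array, so the low end is near the limit of the measurement. Within slide 2, KE was 0.71 below KO replicate 3.

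The other Dcbld2 probe, A_55_P2742980, lies 2507 bases downstream and is annotated to the same RefSeq transcript. It read 8.23, 8.48 and 8.46 in WT, 8.38, 8.49 and 8.28 in KO, 8.45, 8.35 and 8.48 in exercised WT and 8.20, 8.31 and 8.25 in KE. KE and KO overlapped with a mean difference of -0.13, and against KO replicate 3 it was -0.02. The choosing probe, which has 1 reading frame without a stop triplet, has this sequence.
Dcbld2 A_52_P576912: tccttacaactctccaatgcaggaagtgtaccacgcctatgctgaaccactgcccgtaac

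Wscd1, the sialic acid sulfotransferase, was lower in KE than in KO by 0.94 on its choosing probe, a ratio of 0.522. Probe A_51_P458008 lies at chr11:71574370-71574429 (mm9, plus strand) and is annotated to transcript ENSMUST00000138339. Its log2 signals were 5.38, 5.34 and 5.49 in WT, 5.45, 5.38 and 5.55 in KO, 4.97, 4.72 and 5.09 in exercised WT and 4.51, 4.70 and 4.36 in KE. WT and KO overlapped, exercised WT lay below both, and KE lay below exercised WT by a narrow gap of 0.02 between the nearest arrays. Within slide 2 the difference was -1.03, and KO replicate 3 was the highest of the 3 KO arrays.

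The other Wscd1 probe, A_55_P2048194, is 23505 bases downstream. It read 8.15, 8.25 and 8.28 in WT, 8.16, 7.99 and 8.02 in KO, 7.95, 7.93 and 8.08 in exercised WT and 7.90, 8.06 and 8.15 in KE. KE and KO overlapped and differed by -0.02. The downstream probe has no stop triplet in any of the 3 frames. The start of the choosing probe and the whole downstream probe show the 2 stretches compared.
Wscd1 A_51_P458008, bases 1 to 30: ccatcctggtatactcataagccaagaacc
Wscd1 A_55_P2048194: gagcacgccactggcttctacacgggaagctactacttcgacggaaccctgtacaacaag

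Tcl1, the Akt coactivator, has a single probe, A_51_P237129, at chr12:106455424-106455483 (mm9, minus strand), annotated to variant 1. Its log2 signals were 4.57, 4.60 and 4.67 in WT, 4.79, 4.43 and 4.40 in KO, 4.17, 4.21 and 4.26 in exercised WT and 3.75, 3.66 and 3.49 in KE. WT and KO overlapped, exercised WT lay below both and KE lay below exercised WT. The signal was dim. It was well above background on 2 of 3 WT, 3 of 3 KO, 2 of 3 exercised WT and 0 of 3 KE arrays, and 1.44% of the probes tested had a lower mean. For KE, the lowest signal well above background on each KE array was therefore put in place of the measured one. Taken so, KE was 1.29-fold lower than KO. Values taken in this way against WT or exercised WT are not given, since each of these groups held an array not well above background. The measured means of KE and KO were 3.63 and 4.54, and KE was 0.77 below KO replicate 3 within slide 2. All log2 differences given here between KE and another group for Tcl1 are of measured signals. The value of 1.29-fold is not a secured minimum, since a signal above the lowest one can still fail detection. On WT replicate 2 the probe read 4.60 and was not well above background, while the lowest signal well above background there was 4.50. With normexp background correction the KE and KO difference was -0.18. The probe passed the detection filter through KO alone. With no further probe, this difference could not be compared along the transcript.
Tcl1 A_51_P237129, bases 1 to 30: agatcagccatcactcaaggtgttgtgcct

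**Figure D2:**
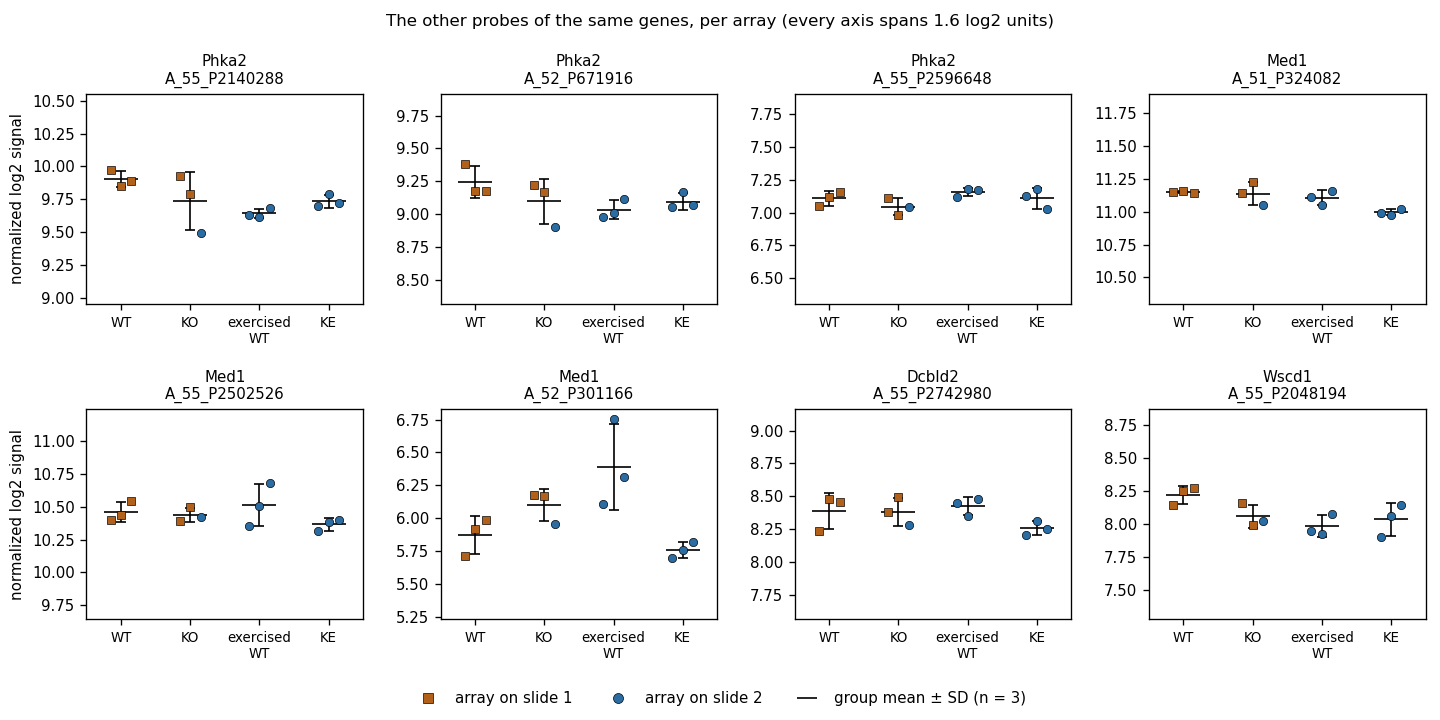
Normalized log2 signal (vertical axes, each spanning the same range) of the 8 other probes of Phka2, Med1, Dcbld2 and Wscd1 by group (horizontal axes), with 1 point per array, squares for slide 1, circles for slide 2, and bars for mean and SD. KE and KO arrays overlap on 6 of the 8 probes; the 2 without overlap are both Med1 probes.

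Across the 4 genes with several probes, the KE and KO difference of the choosing probe was thus accompanied by at most 0.34 in size on any other probe of the gene. KE and KO did not overlap on all 5 choosing probes, which their selection fixed, and on 2 of the 8 other probes, against 21.5% of all probes tested. The coordinates are those of the array's own annotation; exons and untranslated regions were not assigned, since the gene tables used here are of a later build than mm9.

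Only the KO group lay on both slides. KO replicate 3 was its single array on slide 2, so slide and animal cannot be told apart in the values below. KO replicate 3 differed from the mean of KO replicates 1 and 2 by -0.16 for Phka2, -0.06 for Med1, -0.17 for Dcbld2, 0.13 for Wscd1 and -0.21 for Tcl1. On the Phka2 and Wscd1 probes this difference ran against the KE and KO difference, and on the others it ran with it. In all 5 it was smaller than the difference within slide 2, a relation that the choice of probes with low spread within KO and a large KE and KO difference in part fixed. With slide as a block in limma the KE and KO differences equalled those within slide 2, since KO is the only group on both slides. In that fit 9 probes passed and the members' adjusted p-values by limma ran from 0.0617 to 0.164, so none of the members would have been chosen by it.

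**Figure D3:**
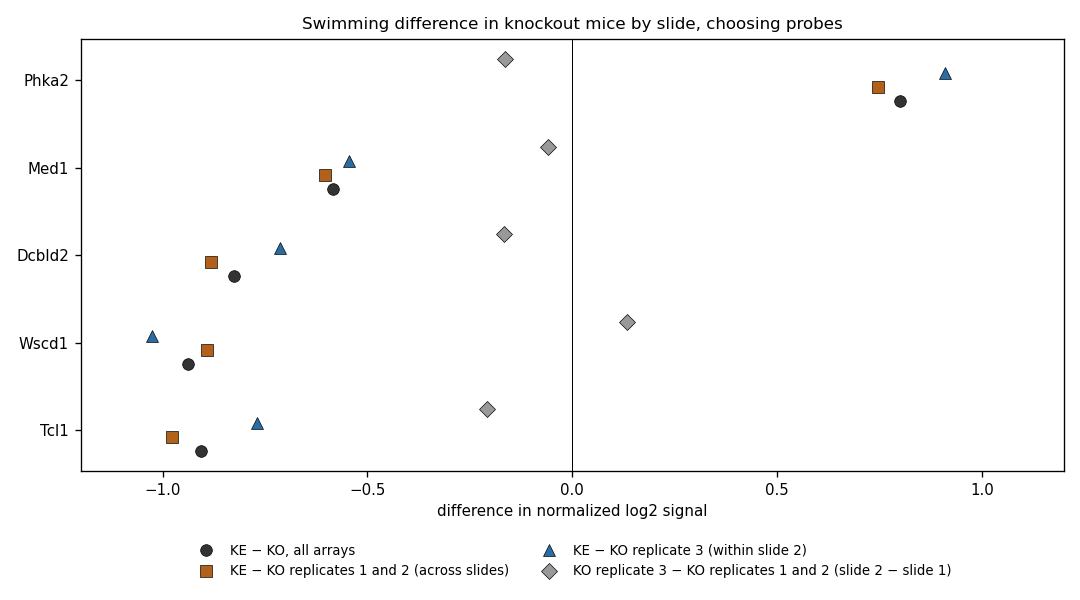
Difference in normalized log2 signal (horizontal axis) of the choosing probe of each gene (vertical axis) for KE minus all KO arrays, KE minus KO replicates 1 and 2, KE minus KO replicate 3, and KO replicate 3 minus KO replicates 1 and 2. Within slide 2 the differences were 0.91 for Phka2 and -1.03 to -0.54 for the other genes, while the KO arrays of the 2 slides differed by -0.21 to 0.13.

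Swimming in wild-type mice was compared in a difference that the choice of members had not used. The spread within WT and exercised WT did enter the fit that chose the probes, which favoured probes of low spread in these 6 arrays, so p-values and non-overlap of the choosing probes are not independent of the choice. The difference had the sign seen in knockout mice for all 5 choosing probes, and 1 of 5 passed the test. Both differences set slide 2 against slide 1, in knockout mice through KO replicates 1 and 2. Swimming and slide therefore cannot be told apart in the shared signs, and no share of all probes is set beside this count. Tcl1 was lower in exercised WT than in WT by 0.40 (SE 0.06, limma on the 6 arrays, adjusted p = 0.0153), lower in all 3 exercised WT arrays. Its probe was well above background on 2 of 3 arrays in each of these groups and passed the detection filter through KO alone. Before normalization its signals were 20.9, 20.3 and 21.0 in WT and 19.9, 20.8 and 20.9 in exercised WT. In all, 8.40% of the probes tested passed, 6.20% as higher in exercised WT and 2.20% as lower. Wscd1 had a difference of -0.47 (SE 0.11, limma adjusted p = 0.0503) and Med1 one of -0.23 (SE 0.07, limma adjusted p = 0.0871). Phka2 differed by 0.22 (SE 0.10, limma adjusted p = 0.194) and Dcbld2 by -0.10 (SE 0.07, limma adjusted p = 0.394). Exercised WT and WT arrays did not overlap on 4 of the 5, Dcbld2 being the exception, against 37.6% of all probes. With slide as a block, through KO replicate 3, the exercised WT and WT values became -0.19 for Tcl1, -0.61 for Wscd1, -0.17 for Med1, 0.39 for Phka2 and 0.06 for Dcbld2, none passing the test. The Tcl1 call was lost without WT replicate 3 (adjusted p = 0.0660), without exercised WT replicate 1 (0.0636) or without exercised WT replicate 2 (0.0679), and in a fit of all 4 group means (0.0934), all by limma. With normexp background correction the Tcl1 value was -0.03 (limma adjusted p = 0.777), the Wscd1 value -0.11 and the Dcbld2 value -0.03, with -0.14 for Med1 and 0.22 for Phka2.

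Among the 8 other probes, 1 passed in exercised WT against WT. It was Phka2 A_55_P2140288, lower in exercised WT by 0.26 (SE 0.06, limma adjusted p = 0.0491), opposite in sign to the value of the Phka2 choosing probe. That call was kept in 2 of 15 alternatives and with slide as a block the value was 0.11. The variant 1 probe next to it, A_52_P671916, had a difference of -0.21 (limma adjusted p = 0.159) and the second Wscd1 probe one of -0.24 (limma adjusted p = 0.0912). Med1 A_52_P301166 had 0.52 (SE 0.18, limma adjusted p = 0.124), and its value with slide as a block was 0.73. The remaining 4 other probes lay between -0.04 and 0.05.

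**Figure D4:**
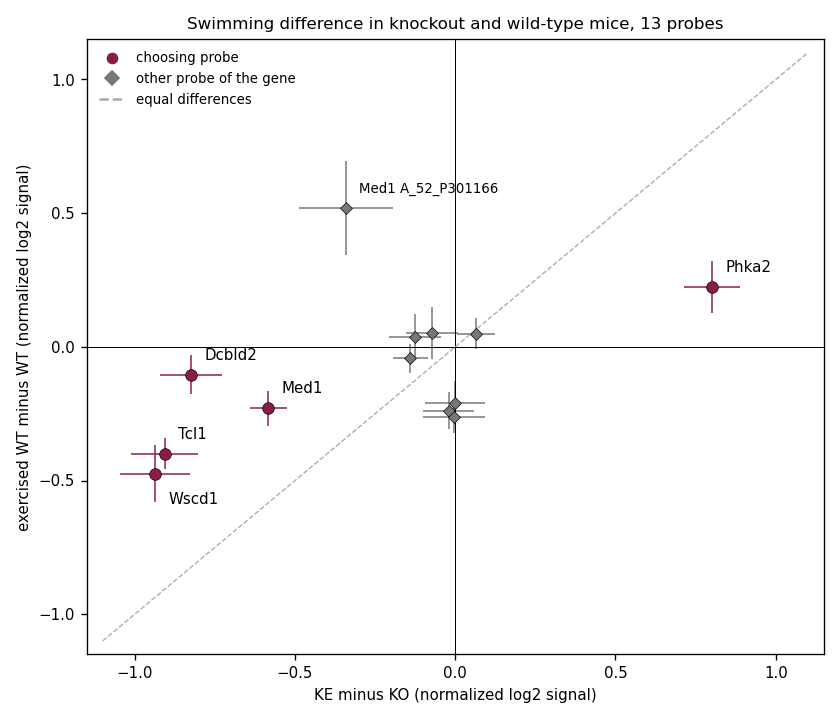
Difference between exercised WT and WT (vertical axis) against that between KE and KO (horizontal axis), both in normalized log2 signal with standard errors, for the 5 choosing probes (circles) and the 8 other probes (diamonds). The choosing probes were selected on the horizontal axis, so their greater distance from 0 there is no finding; Med1 A_52_P301166 lies apart at -0.34 and 0.52.

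Genotype was compared without a test, since both such comparisons share arrays with the one that chose the genes. Without swimming, the KO mean differed from the WT mean by -0.27 for Phka2, 0.14 for Med1, 0.19 for Dcbld2, 0.06 for Wscd1 and -0.07 for Tcl1. KO and WT did not overlap on the first 3, against 8.58% of all probes. Within slide 1 the values were -0.22, 0.16, 0.24, 0.01 and -0.01. After swimming, where all arrays lay on slide 2, KE differed from exercised WT by 0.30 for Phka2, -0.22 for Med1, -0.53 for Dcbld2 and -0.41 for Wscd1. The measured Tcl1 difference was -0.58, with 0 of 3 KE and 2 of 3 exercised WT arrays well above background. KE and exercised WT did not overlap on any of the 5, against 19.5% of all probes. For Phka2, Med1 and Dcbld2 the genotype difference thus had opposite signs without and with swimming. The choice of probes by a large KE and KO difference and a low spread within groups favoured both non-overlap and opposite signs. The counts beside the shares of all probes are therefore a description and no excess can be read from them.

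Markers of neighbouring tissue were set beside these values. The summed linear signal of the 6 striatal markers ran from 8505 to 9140 in KE and from 8664 to 9511 in KO, and the 5 choroid plexus markers from 4176 to 4493 in KE and from 4276 to 6827 in KO. In exercised WT the striatal sum reached 16149, against at most 11198 in WT. The 6 anterior pituitary markers ran from 1592 to 3412 in KE, 2306 to 4980 in KO, 1844 to 2953 in exercised WT and 1377 to 2651 in WT. The part of neighbouring tissue in the results was not tested.

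The pathways around the members were described with their other genes, each by its brightest tested probe. None of these genes passed an adjusted p of 0.05 in KE against KO by limma, in lists of 25 phosphorylase kinase and glycogen genes, 32 Mediator subunits, 16 nuclear receptors and coactivators, 11 neuropilin-like receptors and partners, 25 carbohydrate sulfotransferases and 21 genes of the Tcl1 family and Akt pathway. At an unadjusted p under 0.05, 1 glycogen gene was higher and 6 lower, 1 Mediator subunit higher and 5 lower, 3 nuclear receptor genes higher and 3 lower, 2 neuropilin-like genes lower, 1 sulfotransferase higher and 2 lower, and 4 Tcl1 or Akt genes lower. Of all probes 21.1% did so. The median differences of the lists ran from -0.07 to 0.04, against -0.04 over all probes tested.

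In the glycogen list the other subunits of the kinase had KE and KO differences of 0.04 (Phka1, the muscle alpha subunit), -0.17 (Phkb, beta subunit), 0.13 (Phkg1) and -0.0001 (Phkg2, both catalytic gamma subunits). In exercised WT against WT, 1 gene of the list rose and 3 fell by limma. Pgm1, a phosphoglucomutase, rose by 0.61 (adjusted p = 0.0293). Phkb fell by 0.26 (0.0329), Pygm, muscle glycogen phosphorylase, fell by 0.33 (0.0237), and Epm2a, the glycogen phosphatase laforin, fell by 0.43 (0.0197). Of all probes tested, 6.20% passed as higher and 2.20% as lower. Slide and swimming cannot be told apart in these calls. Within slide 2, KE minus KO replicate 3 was 0.17 for Pgm1, -0.02 for Phkb, -0.01 for Pygm and 0.34 for Epm2a, against 0.53, -0.17, -0.23 and 0.10 over all KO arrays.

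In the Mediator list Med17, a head module subunit, rose in exercised WT by 0.33 (limma adjusted p = 0.0210), and no other of the 32 subunits passed. Its KE and KO difference was 0.24 over all KO arrays and 0.02 within slide 2. The lowest unadjusted p in KE against KO was that of Med20, at -0.27 (limma adjusted p = 0.146). No nuclear receptor or coactivator passed in either comparison by limma; in exercised WT against WT 2 were higher and 1 lower at an unadjusted p under 0.05, which 28.5% of all probes met. Vdr, the vitamin D receptor, had a KE and KO difference of -0.75 (limma adjusted p = 0.143) and Crebbp, a histone acetyltransferase, one of 0.30 (limma adjusted p = 0.139). Within slide 2 the values were -1.01 for Vdr and 0.20 for Crebbp. The Vdr probe was dim, with mean log2 signals of 4.96 in KO and 4.21 in KE, near the lowest signals well above background.

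Among neuropilin-like receptors none passed in either comparison by limma, with 1 lower in exercised WT at an unadjusted p under 0.05, and the growth factor receptor Egfr had the lowest unadjusted p in KE against KO with -0.17 (limma adjusted p = 0.161). Of the sulfotransferases Chst12, a chondroitin sulfotransferase, rose in exercised WT by 0.57 (limma adjusted p = 0.0309) and had a KE and KO difference of 0.58 over all KO arrays (limma adjusted p = 0.165) but of 0.07 within slide 2. Chst9 had the lowest unadjusted p of this list in KE against KO. Its difference was -0.45 over all KO arrays (limma adjusted p = 0.161) and -0.41 within slide 2. The Chst9 probe was also dim, with mean log2 signals of 4.87 in KO and 4.42 in KE. Of the Tcl1 and Akt list Pik3ca, the catalytic subunit of a lipid kinase upstream of Akt, rose in exercised WT by 0.64 (limma adjusted p = 0.0049). Its KE and KO difference was 0.49 over all KO arrays, whose SD was 0.576, and -0.18 within slide 2. Akt1 had a KE and KO difference of 0.01. Foxo1, a transcription factor that Akt inhibits, had -0.34 (limma adjusted p = 0.160), and Mtcp1, a relative of Tcl1, had -0.24 (limma adjusted p = 0.185). Within slide 2 the values were -0.07 for Foxo1 and -0.14 for Mtcp1. The probes of Tcl1b1, Tcl1b3, Tcl1b4 and Chst13 did not pass the detection filter.

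The probes whose values followed each choosing probe most closely over the 12 arrays were sought among all probes with a symbol. For Tcl1 they were those of Zfp560 (Pearson r = 0.963), Zbtb26 (0.951) and 2810001A02Rik (0.950), and for Wscd1 those of Arl2bp (0.940), Ulk3 (0.926) and Tcl1 itself (0.922). Dcbld2 was followed by Atrn (0.954), Thop1 (0.949) and Stx8 (0.945), and Med1 by Papolg (0.974), Stx8 (0.967) and Aamdc (0.966). For Phka2 the 3 probes were those of Zfp612 (0.933), Huwe1 (0.920) and Slc50a1 (0.915). The arrays share slides and groups, so these values are a description of the 12 arrays. The likeness of the Tcl1 and Wscd1 probes was in part fixed by the choice of both on the same contrast.

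The promoters of the members were read from RefSeq sequences of GRCm38.p6, in windows of 300 bases, and all 5 genes were found, Wscd1 with 3 starts. Searched on both strands, the GC box GGGCGG was present in 4 of 5 genes, with 3 copies in Phka2, 2 in Dcbld2, 2 in Tcl1 and 1 in Med1, against 35.7% of 32851 promoters with at least 1. The CCAAT box was present 3 times in Dcbld2 and once in Med1, against 37.4%. The E-box CACGTG (7.15% of promoters), the cAMP response element TGACGTCA (1.79%) and TATAAA (13.6%) did not occur in any member. A match is a description of the letters only. The 250 bases upstream of the start are shown for the member that was higher in KE and for the member with the most matches, a choice made after the values were seen, with GC and CCAAT boxes of either strand in capitals. They lie at chrX:160501912-160502161 and chr16:58408285-58408534, both on the plus strand.
Phka2 promoter: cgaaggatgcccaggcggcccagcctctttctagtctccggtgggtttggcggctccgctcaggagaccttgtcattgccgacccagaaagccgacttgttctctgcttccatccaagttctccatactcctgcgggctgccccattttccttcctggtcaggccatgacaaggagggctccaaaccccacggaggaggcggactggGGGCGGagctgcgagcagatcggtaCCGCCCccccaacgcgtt
Dcbld2 promoter: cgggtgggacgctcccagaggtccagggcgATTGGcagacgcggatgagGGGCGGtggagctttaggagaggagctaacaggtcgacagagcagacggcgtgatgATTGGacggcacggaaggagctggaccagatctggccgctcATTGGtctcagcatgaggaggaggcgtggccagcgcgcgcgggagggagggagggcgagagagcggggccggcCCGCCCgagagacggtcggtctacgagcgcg

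The size of the KE and KO differences depended on the background correction, not their direction. With normexp on the scanner signals, which adds an offset of 50 to each signal, Tcl1 had a difference of -0.18, Dcbld2 -0.26, Wscd1 -0.30 and Med1 -0.34, while Phka2, had 0.60. Scaling to the 75th percentile gave -0.74 for Tcl1, -0.68 for Dcbld2, -0.79 for Wscd1, -0.48 for Med1 and 0.86 for Phka2.

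**Figure D5:**
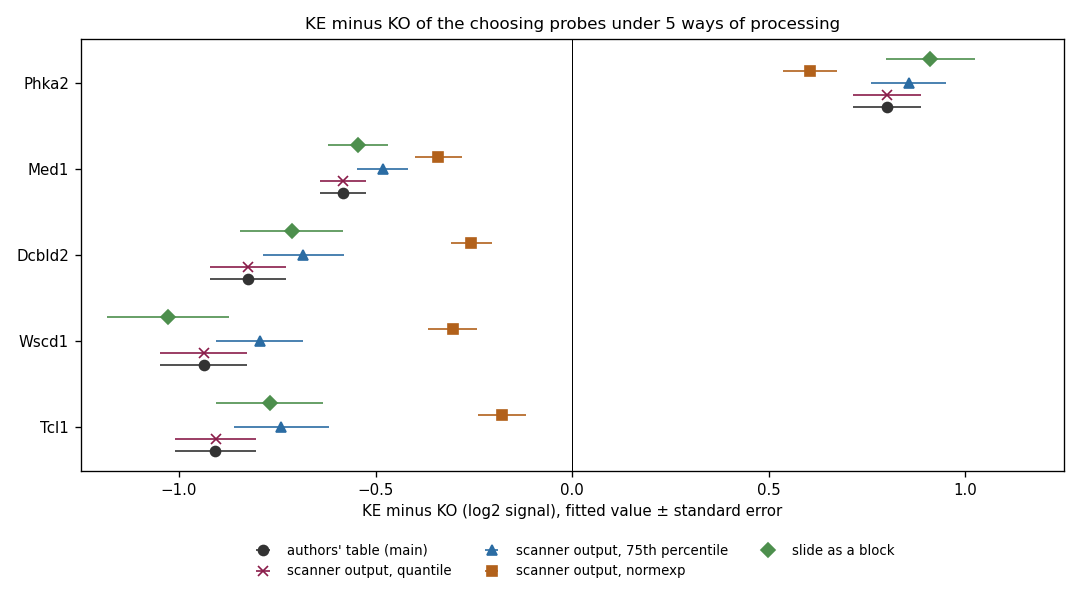
KE minus KO in log2 signal with its standard error (horizontal axis) for the choosing probe of each gene (vertical axis) in the authors' table, in scanner signals under quantile normalization, 75th percentile scaling and normexp, and with slide as a block. All values keep their sign, which for quantile normalization and the slide block the choice of probes fixed. Under normexp the values run from -0.34 to -0.18 for the 4 genes lower in KE.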

How the data were processed

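Hypothalamic RNA was labelled with Cy3 and hybridised to single-colour Agilent mouse arrays. Per the labels and the methods, the authors extracted spot intensity with Agilent Feature Extraction 10.7.1.1, quantile-normalized it in GeneSpring, and deposited log2 signals of 56605 probes beside the scanner intensity files. The deposited scanner flags, a score of 0 or 1 per spot, gave detection. The authors' tables of 4 comparisons hold fold changes and p-values with 24 columns of values and were not used. Groups follow the labels; nothing names separate litters or extractions, so p-values measure the spread between these arrays.

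Probes well above background on all 3 arrays of a group were kept (35230). Exercised WT was tested against WT by limma 3.58.1 (R 4.3.3) on those 6 arrays, with Benjamini-Hochberg adjustment and a threshold of 0.05. KE against KO, fitted on 4 group means, chose the members and was not tested for them. Files, figures and motifs were handled in Python 3.11.15. The fits were tested on simulated data, which held a slide difference only for the fit with slide as a block. This does not cover the KE against KO fit on 4 group means with KO on both slides. Symbols and mm9 positions are the array's own. The members and gene lists were chosen with earlier results of these data known. Every member probe was named, with list genes that passed or had the lowest p in KE against KO and the 3 most similar probes. Alternatives were scanner signals under quantile, 75th percentile and normexp (offset 50) processing, other filters, the methods' t-test, other designs, slide or replicate number as a block, and leaving out each array; slide 2 alone was added after seeing the data.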

Additional observations from a re-analysis of the deposited data

Results flagged for a closer look

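The Med1 probe A_52_P301166 differed in opposite directions with swimming in the 2 genotypes. KE minus KO was -0.34 and exercised WT minus WT was 0.52 on the log2 scale, with no overlap between the groups compared in either case. The difference between the genotypes was not tested. Exercised WT replicate 2, at 6.75, was the highest of the 12 arrays, and the other exercised WT arrays read 6.11 and 6.31.

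The choosing probes of Phka2, Med1 and Dcbld2 differed between genotypes in opposite directions without and with swimming, without overlap in either case. KO minus WT and KE minus exercised WT were -0.27 and 0.30 for Phka2, 0.14 and -0.22 for Med1 and 0.19 and -0.53 for Dcbld2. These differences between conditions were not tested, and the KE and KO arrays in them are those that chose the probes.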

How the results depend on the processing

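Each of the 5 choosing probes kept the sign of its KE minus KO value under all alternatives that could be fitted (21 for Tcl1 and Dcbld2, 22 for the others), and Tcl1 kept its call in exercised WT against WT in 7 of 14. With slide as a block, the exercised WT minus WT values of Med1 A_51_P324082 (0.091), Dcbld2 A_52_P576912 (0.064), Phka2 A_52_P671916 (0.086) and Phka2 A_55_P2140288 (0.11) changed sign, and with normexp that of Dcbld2 A_55_P2742980 (-0.0090) did so. Leaving out single arrays, Med1 A_55_P2502526 ranged from -0.031 to 0.13 and Dcbld2 A_55_P2742980 from -0.043 to 0.082. The cause was not tested.

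Counts of probes with an adjusted p under 0.05 in exercised WT against WT (2958) became 4616 with normexp, 1674 without the detection filter, 1635 by the methods' t-test, and 0 in limma fits of all 4 group means with or without slide as a block. Those past the 2-fold criterion (795) became 263 with normexp, 1428 without the filter, 447 for probes above background on all 12 arrays and 277 with the slide block. In KE against KO the adjusted count (7) became 0 with 75th percentile scaling, by the t-test, in a limma fit of 6 arrays and on slide 2 alone, 3 with normexp and 19 without the filter; the 2-fold count (426) became 124, 1015, 231 (12 arrays), 57 (t-test), 146 (6 arrays), 169 (slide block) and 162 (slide 2). Where the adjusted count was 0 with no array left out, 2178 to 9154 probes had an unadjusted p under 0.05. Leaving out single arrays, the adjusted counts ran from 957 to 2467 and from 0 to 8577, and the 2-fold counts in KE against KO from 124 to 1187. With KO replicate 3 left out, the contrast lay wholly across slides.

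Same-number replicates of exercised WT and WT had correlations of 0.07, 0.04 and 0.15, against -0.11 to 0.03 for unlike numbers. For KE and KO they were -0.05, 0.01 and -0.005, against -0.08 to 0.10. All were small, and whether replicate numbers pair the arrays was not tested. The replicate block gave 1401 and 0 probes with an adjusted p under 0.05, and the Tcl1 value in exercised WT against WT then had a limma adjusted p of 0.0517. Dim probes such as that of Tcl1 are limited by signal over background.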
